A study of Mus musculus with 12 samples.

Results

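This section describes 10 marker genes of neural stem and progenitor cells in 12 RNA-seq libraries of cultured mouse cells. The genes were chosen by name, but with earlier results of these data known. They are the intermediate filament genes *Nes* and *Vim*, the surface marker genes *Prom1*, *Cd24a* and *Fut4*, and the Musashi genes *Msi1* and *Msi2*. The others are the nuclear factor gene *Trnp1* and the extracellular matrix genes *Bcan* and *Sparcl1*. All 10 were present among the 45706 genes counted, and all 10 were among the 17003 genes that passed the filter on low counts and were tested.

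All libraries came from cells grown out of mouse embryonic stem cells of strain C57BL/6 that carry GFP on a single copy of *Sox1*, so that GFP reports *Sox1* transcription. There were 4 groups with 3 libraries each. Baseline libraries were made from glial progenitors without *Sox1* induction, which were not sorted. Sox1posGP libraries were made from sorted glial progenitors in which the *Sox1* reporter was on after dCas9-VP64, a catalytically dead Cas9 fused to a transcriptional activator, had been sent to the *Sox1* promoter. NSC libraries were made from unsorted neuroepithelial cells and NR libraries from neural rosettes sorted for GFP. The progenitors were expanded with bFGF, EGF and laminin, and lines expressing dCas9-VP64 were each grown from a single cell. According to the study, replicates were made on different days in different clonal lines, but which line gave which library is not stated. Sorting differed together with group except between NSC and Baseline, both unsorted, and between Sox1posGP and NR, both sorted, and in the other comparisons the effects of sorting and group cannot be told apart.

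Intermediate filaments are cytoskeletal polymers whose subunits change as a neural cell matures: keratins mark epithelia, Nestin and Vimentin mark neuroepithelial and radial glial cells, and neurofilaments mark neurons. Prominin-1 (CD133), CD24 and the Lewis X carbohydrate (CD15, made by the fucosyltransferase of *Fut4*) are surface features by which neural stem and progenitor cells are often sorted. Musashi proteins bind RNA and regulate translation in progenitors, Trnp1 is a chromatin-associated nuclear protein of self-renewing radial glia, and Brevican and Sparcl1 are matrix proteins that glial cells secrete in the brain.

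Total counts ranged from 3407066 to 6315574 in Sox1posGP, from 4939268 to 18351483 in Baseline, from 29046205 to 43095688 in NSC and from 16707006 to 34594885 in NR. A gene at 3 counts or fewer in every library of a group was treated as at the floor. Levels are given as CPM, reads of a gene relative to the library's total after TMM scaling. The mean level that 3 counts stand for was 0.408 CPM in Baseline and 0.613 CPM in Sox1posGP, against 0.0874 CPM in NSC and 0.122 CPM in NR, and covers counting error only. The targeted gene *Sox1* was at 4.83, 6.00 and 5.43 CPM in Baseline, at 20.3, 20.9 and 21.7 CPM in Sox1posGP, at 48.6, 64.9 and 51.8 CPM in NSC, and at 4.62, 20.0 and 19.2 CPM in NR. NR replicate 1 was thus below every Baseline library for *Sox1* although its label gives GFP-sorted cells, and the comparisons and list counts with NR are also given without it. The 5 neural progenitor markers summed to 1123 to 1189 CPM in Baseline, 543 to 600 CPM in Sox1posGP, 708 to 1078 CPM in NSC and 258 to 475 CPM in NR. Of these markers *Sox2*, *Pax6* and *Fabp7* were lower in every Sox1posGP library than in every Baseline library, while *Sox1* and *Hes5* were higher. Summed over 6 markers, pluripotency genes reached 1408 to 2694 CPM in NR, with *Zfp42* at 293 to 511 CPM, against 46.5 to 144 CPM in NSC, 7.69 to 9.34 CPM in Sox1posGP and 6.47 to 7.39 CPM in Baseline. Markers of mesenchyme and endothelium summed to 1326 to 6052 CPM in NR and 821 to 2768 CPM in NSC, carried by *Col1a1* and *Col3a1*, against 33.0 to 49.9 CPM in the other groups. The 7 oligodendrocyte lineage markers summed to 2404 to 2533 CPM in Baseline and 1628 to 1761 CPM in Sox1posGP, carried by *Olig1* and *Olig2* with *Sox10* at 0 counts in both, against 49.0 to 84.7 CPM in NSC and NR. The 6 neuron markers summed to 463 to 490 CPM in Baseline, 406 to 423 CPM in Sox1posGP, 450 to 599 CPM in NSC and 288 to 424 CPM in NR. *Map2* carried the sums of Baseline and Sox1posGP and was lower in NSC and NR, where the other neuron markers were higher. *Tubb3* was at 235 to 263 CPM in NSC and 101 to 167 CPM in NR, against at most 7.82 CPM in Baseline and Sox1posGP. The 5 astrocyte markers summed to 21.9 to 25.5 CPM in Baseline and 25.8 to 29.9 CPM in Sox1posGP. In NSC they summed to 9.46 to 10.7 CPM and in NR to 7.39 to 10.4 CPM. The 5 mesoderm and endoderm markers summed to 78.6 to 135 CPM in NR and 37.2 to 55.8 CPM in NSC. In Sox1posGP they summed to 31.3 to 39.3 CPM and in Baseline to 21.5 to 29.2 CPM. The part of these other cell type markers in the results on the 10 genes was not tested. In libraries made from many cells, fewer cells of a type and less RNA per cell cannot be told apart.

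The starts of *Nes*, *Bcan* and *Trnp1* are shown because these genes were higher in Sox1posGP than in Baseline and because the first pair are neighbours that point at each other on chromosome 3. Each sequence holds the 250 bases upstream of the RefSeq start on GRCm38.p6, read on the strand of the gene, with every CpG in capitals. The last bases of the *Nes* sequence lie inside the longer gene model of GENCODE, and the *Bcan* sequence lies upstream of the gene's start in GENCODE.
Nes, chr3:87970843-87971092 on the plus strand: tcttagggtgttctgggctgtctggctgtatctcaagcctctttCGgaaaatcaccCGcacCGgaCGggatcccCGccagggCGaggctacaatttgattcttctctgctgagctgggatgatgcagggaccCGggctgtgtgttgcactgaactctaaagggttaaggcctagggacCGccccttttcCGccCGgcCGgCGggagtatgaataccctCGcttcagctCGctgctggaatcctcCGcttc
Bcan, chr3:88000357-88000606 on the minus strand: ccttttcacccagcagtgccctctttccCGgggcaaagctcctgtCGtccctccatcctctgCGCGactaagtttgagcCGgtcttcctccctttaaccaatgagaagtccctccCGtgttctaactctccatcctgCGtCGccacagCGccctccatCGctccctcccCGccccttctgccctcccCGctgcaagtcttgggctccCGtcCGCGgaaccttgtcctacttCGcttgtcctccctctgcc
Trnp1, chr4:133498551-133498800 on the minus strand: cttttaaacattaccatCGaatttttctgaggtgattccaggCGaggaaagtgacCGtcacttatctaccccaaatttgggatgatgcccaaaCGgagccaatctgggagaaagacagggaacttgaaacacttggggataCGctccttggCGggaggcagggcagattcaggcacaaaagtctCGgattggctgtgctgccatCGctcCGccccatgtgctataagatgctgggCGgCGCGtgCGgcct
The *Nes* sequence holds 15 CpG, the *Bcan* sequence 16 and the *Trnp1* sequence 13, against a median of 6 over 32851 RefSeq promoter windows, of which 27.3%, 25.4% and 31.5% hold at least as many. Of the 10 genes 7 had a RefSeq window (*Cd24a*, *Msi1* and *Sparcl1* are named only). The letters ACAAAG or ACAATG, cores of the motif bound by SOX proteins, were searched on both strands of the upstream 250 bases. They were found in 0 of these 7 genes' windows and in 25.2% of all windows.

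**Figure D1:**
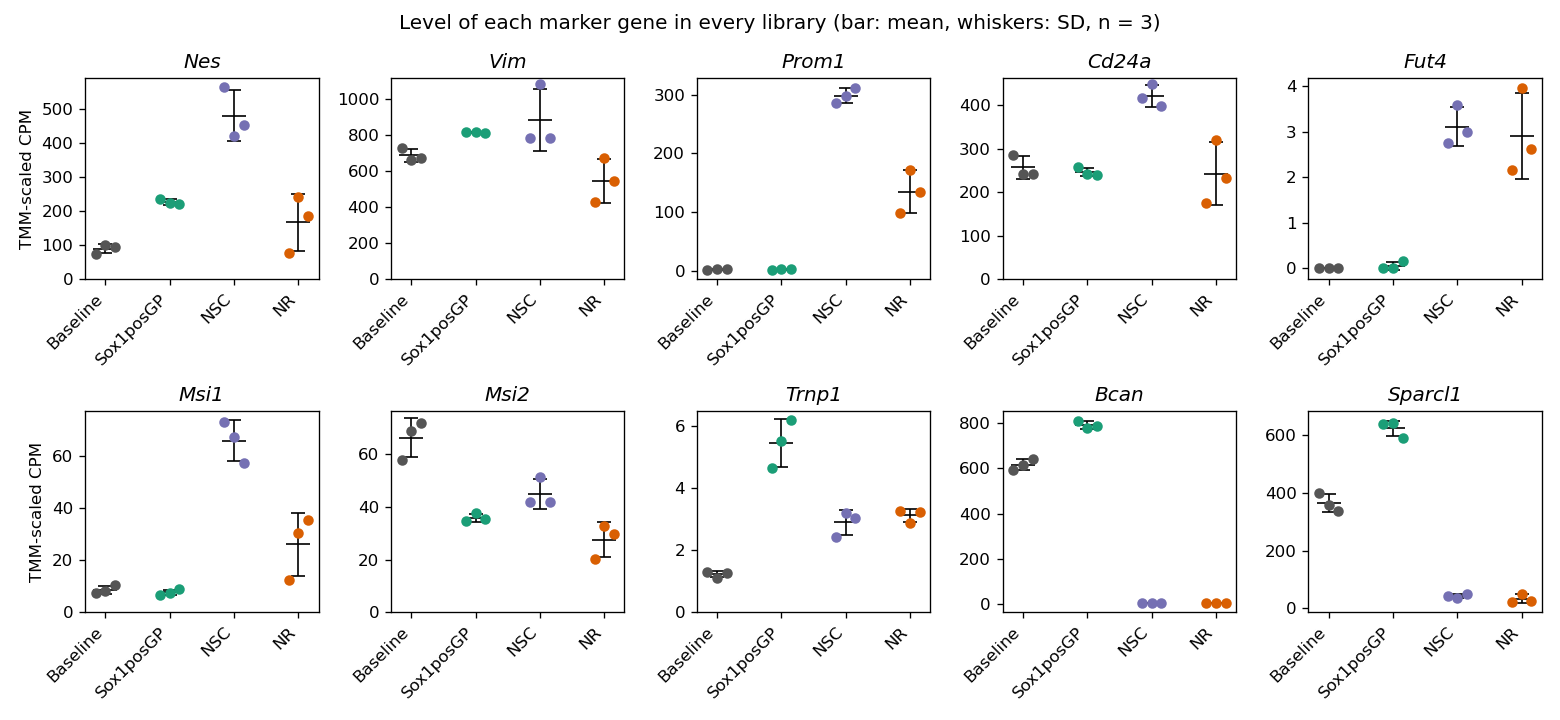
TMM-scaled CPM (y axis, with a scale of its own in each panel) of the 10 marker genes in the 12 libraries (points, by group on the x axis), with the mean as a bar and the SD as whiskers (n = 3). *Bcan* and *Sparcl1* are high in Baseline and Sox1posGP, *Prom1* and *Fut4* are high in NSC and NR, and *Trnp1* is highest in Sox1posGP, where its 3 libraries lie between 4.63 and 6.17 CPM.

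Between Sox1posGP and Baseline the question is how sorted glial progenitors with the *Sox1* reporter on differ in the marker genes from unsorted ones. According to the paper only a small part of the targeted cells responded, so Sox1posGP holds a sorted minority that had also received guide RNAs. The effects of *Sox1* activation and of this selection cannot be told apart. Of the 10 genes, *Nes*, *Trnp1*, *Bcan* and *Sparcl1* were higher and *Msi2* was lower at an adjusted p under 0.1, by the quasi-likelihood test of edgeR after Benjamini-Hochberg adjustment over all 17003 genes. These 5 of 10 stand beside 44.3% of all genes called, 21.6% higher and 22.7% lower, so the share of marker genes called was close to the background. The libraries of both groups did not overlap for 6 of the 10 genes, against 52.7% of all genes. At a fold change over 4 as well, the further condition of the study, 1 of the 10 was called (*Trnp1*), beside 5.79% of all genes. The median log2 fold change of the 10 genes was 0.30, or 0.18 with *Fut4* set to its bound, against 0 over all genes.

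Between NSC and Baseline all 10 genes were called, 7 higher and 3 lower, beside 78.1% of all genes (44.4% higher, 33.7% lower), and none of the 10 had overlapping groups (77.3% of all genes do not overlap). Among them *Fut4* had 0 counts in every Baseline library and at most 1 in a Sox1posGP library, so that it passed the filter only through NSC and NR, where it is high, and had to differ, and without it 9 of 9 were called. Between NR and Baseline 9 of the 10 were called, 5 higher and 4 lower, beside 79.8% of all genes (45.6% higher, 34.1% lower), and 7 did not overlap (77.8% of all genes). *Fut4*, which had to differ here as well, is among the genes called and among those that did not overlap. Without NR replicate 1 the number called was 8, with *Vim* lost, beside 43.4% of all genes higher and 34.0% lower. The libraries then did not overlap for 8, for which the share of all genes is not given here. At a fold change over 4 as well, 6 of the 10 were called in NSC (25.4% of all genes) and 4 in NR (28.1%), with *Fut4* in both counts. These comparisons and the one above share the Baseline libraries, so their values are given side by side and are not independent of each other.

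Between NR and NSC, both labelled as neuroepithelial cells, 7 of the 10 genes were lower in NR and 0 were higher, beside 26.6% of all genes lower and 30.0% higher (56.6% called in all). The groups did not overlap for 6 of the 10, against 56.7% of all genes. The median log2 fold change of the 10 was -0.69, against 0.01 over all genes. At a fold change over 4 as well, 0 of the 10 were called, beside 7.46% of all genes. The 5 neural progenitor markers summed to 258 to 475 CPM in NR against 708 to 1078 CPM in NSC, and the pluripotency markers to 1408 to 2694 CPM against 46.5 to 144 CPM, and their part in the lower marker levels was not tested. Without NR replicate 1 again 7 were called lower, with a median of -0.54. Beside them stand 21.9% of all genes lower, 24.8% higher and a median of 0. A model blocked by replicate number also called 7, for which the share of all genes is not given here.

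Between Sox1posGP and NSC 9 of the 10 were called, 3 higher and 6 lower in Sox1posGP, beside 73.2% of all genes (31.4% higher, 41.8% lower), and 9 did not overlap (74.3% of all genes). Between Sox1posGP and NR 8 were called, 5 higher and 3 lower, beside 76.4% of all genes (32.0% higher, 44.4% lower), and 8 did not overlap (75.9% of all genes). Without NR replicate 1 the number called was 7, with *Msi2* lost, beside 31.6% of all genes higher and 42.1% lower. At a fold change over 4 as well, 5 of the 10 were called between Sox1posGP and NSC (22.6% of all genes) and 4 between Sox1posGP and NR (26.2%). The counts of marker genes in both comparisons include *Fut4*, which had to differ because it passed the filter only through NSC and NR.

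**Figure D2:**
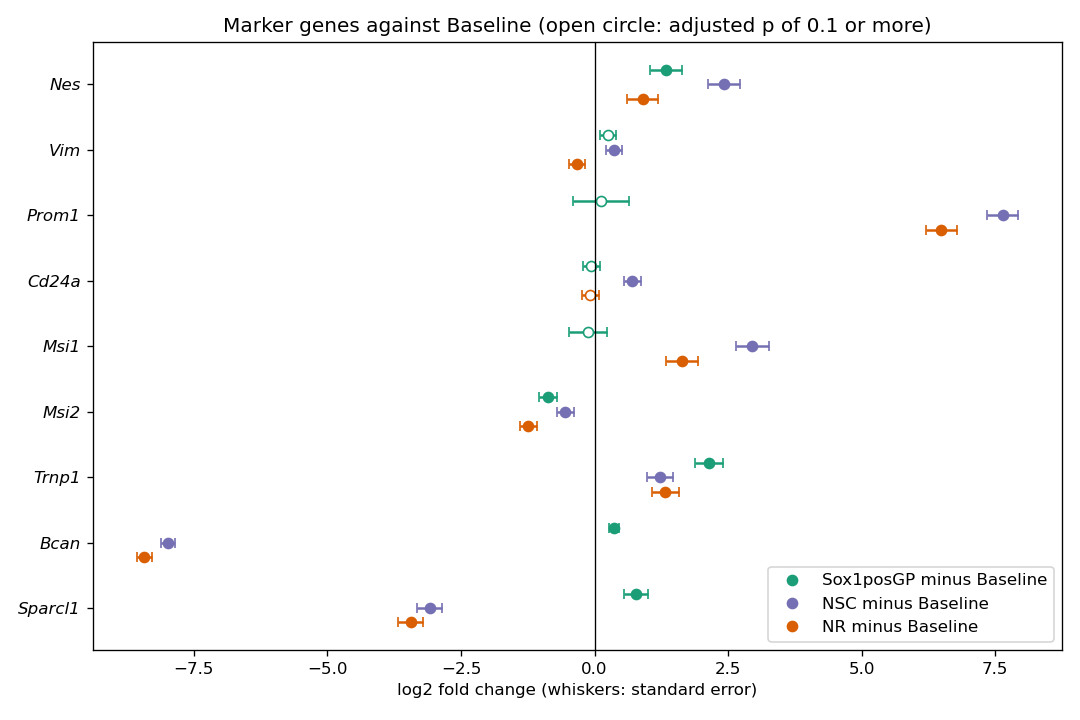
Log2 fold change (x axis) of 9 marker genes (y axis) in Sox1posGP, NSC and NR, each minus Baseline, with the standard error as whiskers; filled circles passed an adjusted p under 0.1 and open circles did not. *Fut4* is left out because its Baseline libraries hold 0 counts. *Bcan* and *Sparcl1* lie above 0 in Sox1posGP and below -3 in NSC and NR.

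*Nes* (ENSMUSG00000004891) encodes Nestin, the intermediate filament protein that is used most widely as a marker of neural stem and progenitor cells. On GRCm38 it lies at chr3:87971078-87980451 on the plus strand and overlaps no other annotated gene. Its level was 75.5, 101 and 93.9 CPM in Baseline and 236, 224 and 220 CPM in Sox1posGP. It was 564, 421 and 452 CPM in NSC and 76.9, 240 and 185 CPM in NR. The order of the means was therefore Baseline, NR, Sox1posGP and NSC, with NR reaching into both of its neighbours: replicate 1 of NR was within the Baseline range and replicate 2 was above every Sox1posGP library. The log2 fold change against Baseline was 1.34 in Sox1posGP (standard error 0.29, adjusted p = 0.00246 by the edgeR test) and 2.42 in NSC (adjusted p = 5.49e-06, same edgeR test). In NR it was 0.90 (adjusted p = 0.0110, same edgeR test) with all 3 libraries, 1.21 without replicate 1 and 0.56 without replicate 2. On the log2 scale the Sox1posGP libraries stood 55.7% ± 2.19 (SD, n = 3) of the way from the Baseline mean to the NSC mean. The SD of this and later positions covers the Sox1posGP libraries only and leaves out the spread of the end groups. Sox1posGP was 1.08 below NSC (adjusted p = 0.00399, same edgeR test). Sox1posGP and NR did not differ at this threshold, with a log2 difference of 0.43 and an interval from -0.12 to 0.99 at 95%. It was 0.11 without NR replicate 1, and without NR replicate 2 it was 0.78 and passed (adjusted p = 0.0142, same edgeR test).

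The genes around *Nes* were also higher in Sox1posGP. Of the 145 other tested genes within 5 Mb of *Nes*, 80 were higher and 7 lower than in Baseline at an adjusted p under 0.1, against 21.6% higher and 22.7% lower over all genes. Their median log2 fold change was 0.76, and 28 of them were at least as high as *Nes*. Over the whole of chromosome 3 the median was 0.15 in 909 genes, of which 281 were higher and 188 lower. The same stretch around *Nes* had a median of -0.13 in NSC against Baseline, with 54 genes higher and 61 lower, where the median of all genes was 0.20. In that comparison 22 neighbours were at least as high as *Nes*. The part of the surrounding stretch in the *Nes* difference was not tested.

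**Figure D3:**
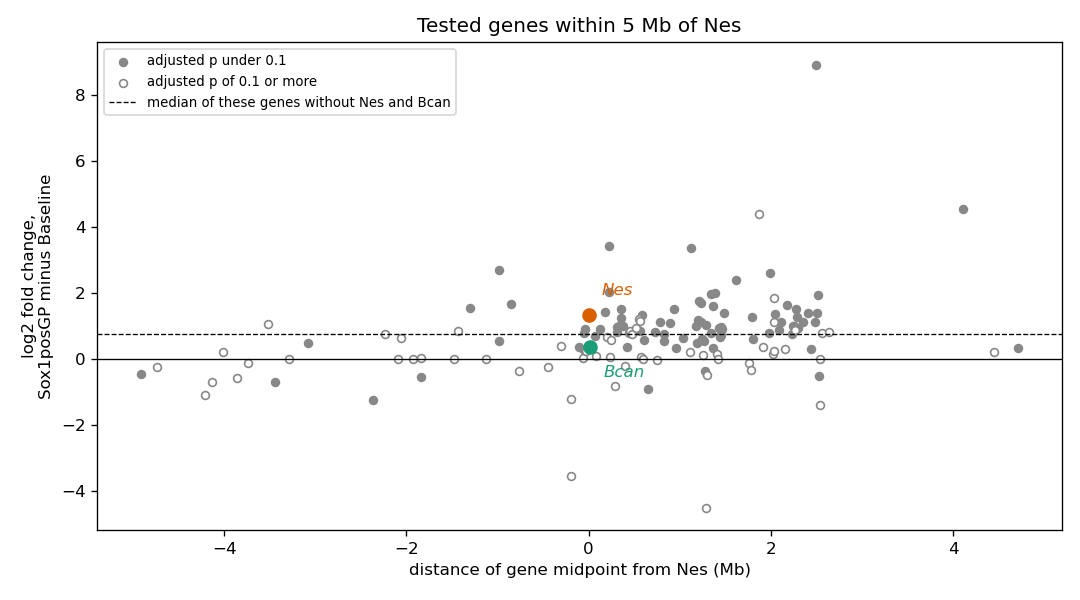
Log2 fold change of Sox1posGP minus Baseline (y axis) for the tested genes within 5 Mb of *Nes*, by the distance of the gene's midpoint from that of *Nes* in Mb (x axis). Filled points passed an adjusted p under 0.1, the dashed line is the median of the other 144 genes, 0.76, and *Nes* (orange) lies above it while *Bcan* (green) lies below it.

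*Vim* (ENSMUSG00000026728, chr2:13573927-13582826, plus strand) encodes Vimentin, which copolymerises with Nestin. It was at 728, 661 and 675 CPM in Baseline and at 815, 817 and 812 CPM in Sox1posGP. It was at 783, 1081 and 786 CPM in NSC and at 427, 670 and 544 CPM in NR. All Sox1posGP libraries lay above all Baseline libraries, but the log2 fold change of 0.24 (standard error 0.15) did not pass the test (adjusted p = 0.234 by the edgeR test). It passed under 3 alternatives, namely 0.29 in a fit of these groups alone, 0.25 with no filter and 0.31 with at least 10 counts in every library (adjusted p = 1.26e-04, 0.0879 and 0.0903, same edgeR test). In NSC *Vim* was 0.36 above Baseline (adjusted p = 0.0424, same edgeR test), and the value fell to 0.18 with an adjusted p of 0.233 in the same edgeR test without NSC replicate 2. Without Baseline replicate 2 it was 0.32 and did not pass either (adjusted p = 0.138, same edgeR test). In NR it was 0.33 below Baseline (adjusted p = 0.0575, same edgeR test), with replicate 2 inside the Baseline range. Without NR replicate 1 that difference no longer passed, with a log2 value of -0.22 and an adjusted p of 0.172 in the same edgeR test, nor did it without Baseline replicate 1 (-0.31) or under DESeq2 (-0.27), while it was -0.50 without NR replicate 2. *Vim* was lower in NR than in NSC by 0.69 with all libraries and by 0.55 without NR replicate 1 (adjusted p = 0.00175 and 0.00673, same edgeR test). Per length of the annotated exons (RPKM) *Vim* was the more abundant of both filament genes in every group, at 145 against 14.1 RPKM in Baseline and at 186 against 74.7 RPKM in NSC.

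Among the 17 intermediate filament genes listed, all of which were tested, 3 were higher and 1 lower in Sox1posGP than in Baseline, with a median log2 fold change of 0.51 (0.42 with genes at the floor set to their bound) against 0 over all genes, of which 21.6% were higher and 22.7% lower. Besides *Nes*, the higher genes were *Sync*, which encodes syncoilin, at 2.29 against 0.607 CPM, and the nuclear lamin gene *Lmnb1* at 204 against 144 CPM. The lower gene was *Prph*, which encodes the neuronal filament protein peripherin, at 0.729 against 3.87 CPM. In NSC 14 of the 17 were higher and 2 lower than in Baseline, with a median of 4.07 (2.78 at the bound), beside 44.4% and 33.7% of all genes. The neurofilament gene *Nefl* was at 149 against 0.557 CPM and the epithelial keratin gene *Krt8* at 82.0 against 1.28 CPM. In NR 14 were likewise higher and 2 lower, beside 45.6% and 34.1% of all genes, with *Krt8* at 355 CPM, *Krt18* at 258 CPM and *Krt19* at 54.8 CPM. Without replicate 1 these were 14 and 1, beside 43.4% and 34.0% of all genes. *Des*, *Krt19* and *Nefh* were at 0.412 CPM or less on average in Baseline and in Sox1posGP. They passed the filter only through NSC and NR, where they are high, and like *Fut4* had to differ. *Gfap*, the filament gene of astrocytes, was at 2.25 CPM in Baseline and 3.09 CPM in Sox1posGP and did not pass the test between them.

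**Figure D4:**
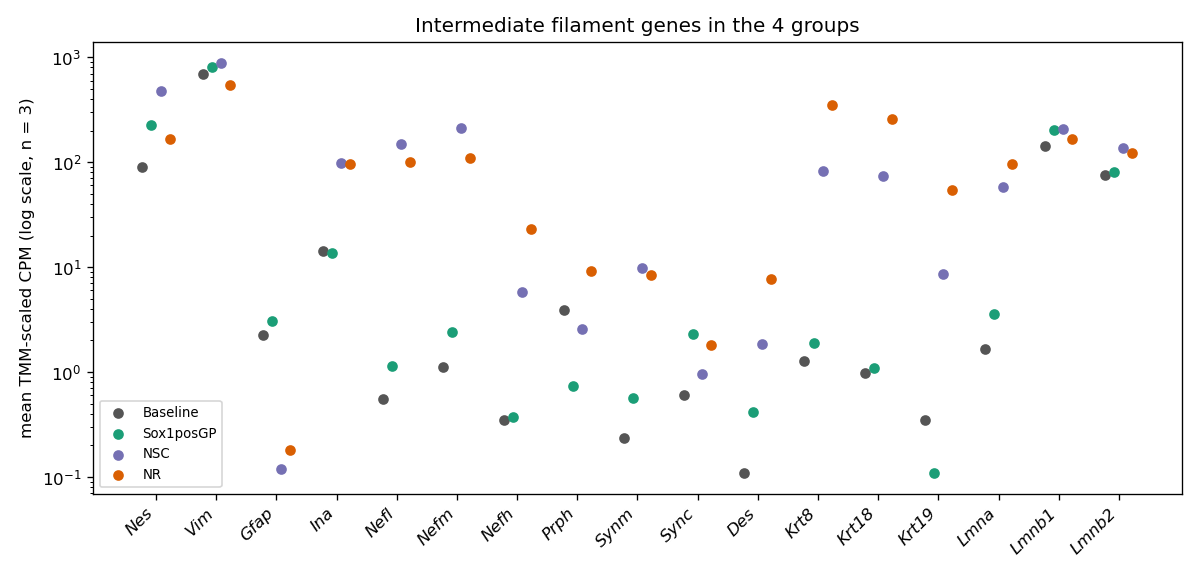
Mean TMM-scaled CPM (y axis, log scale, n = 3) of 17 intermediate filament genes (x axis) in each group (colour); a mean of 0 has no point on the log scale. *Nefl*, *Nefm*, *Krt8* and *Krt18* lie far higher in NSC and NR than in Baseline and Sox1posGP, while *Vim* lies between 547 and 884 CPM in all groups.

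*Prom1* (ENSMUSG00000029086, chr5:43993620-44102032, minus strand) encodes Prominin-1, a pentaspan protein of membrane protrusions. It had 19, 13 and 10 reads in Baseline, which is 1.13, 1.81 and 2.09 CPM, and 1, 13 and 12 reads in Sox1posGP, which is 0.290, 2.04 and 2.00 CPM. It was at 286, 297 and 312 CPM in NSC and at 97.5, 172 and 135 CPM in NR. The fitted log2 fold change of Sox1posGP against Baseline was 0.12 with an interval from -0.91 to 1.16 at 95%, while the mean CPM lay the other way, at 1.44 against 1.68, so no direction was measurable at this depth. *Prom1* was 7.64 higher on the log2 scale in NSC than in Baseline (standard error 0.29, adjusted p = 5.64e-11 by the edgeR test) and 6.49 higher in NR (adjusted p = 2.30e-10, same edgeR test), or 6.64 higher without replicate 1. NR was 1.15 below NSC (adjusted p = 1.68e-04, same edgeR test) and 0.97 below it without NR replicate 1. Its gene body overlaps *Gm42716* on the same strand and the antisense gene *Gm16401*, which had at most 25 and 99 reads in a library. The strand setting of the counting is not given in the sources used here, so the few *Prom1* reads of Baseline and Sox1posGP cannot be told apart from those of such partners.

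*Cd24a* (ENSMUSG00000047139, chr10:43578284-43584265, plus strand) encodes the small glycosylphosphatidylinositol-anchored protein CD24. It was at 286, 242 and 242 CPM in Baseline, at 257, 242 and 240 CPM in Sox1posGP, at 415, 447 and 398 CPM in NSC and at 175, 319 and 233 CPM in NR. The NSC libraries stood above all others, and the other groups overlapped. The log2 fold change against Baseline was 0.71 in NSC (adjusted p = 0.00117 by the edgeR test). It was -0.06 in Sox1posGP with an interval from -0.38 to 0.25 at 95% and -0.08 in NR with an interval from -0.39 to 0.23, and neither passed. The NR value was 0.07 without replicate 1. Without NR replicate 2 the NR value was -0.33 and passed (adjusted p = 0.0223, same edgeR test), and Sox1posGP was then 0.26 above NR (adjusted p = 0.0624, same edgeR test). NR was 0.79 below NSC with all libraries and 0.61 below it without NR replicate 1 (adjusted p = 0.00103 and 0.00175, same edgeR test).

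*Fut4* (ENSMUSG00000049307, chr9:14748320-14752393, minus strand) had 0 reads in every Baseline library and 0, 0 and 1 reads in Sox1posGP. Both groups were at the floor and no fold change between them was taken. It had 123, 104 and 98 reads in NSC and 35, 123 and 93 reads in NR, which is 2.75, 3.59 and 2.99 CPM and 2.16, 3.97 and 2.61 CPM. Against the level of 3 counts per library *Fut4* was at least 7.62-fold higher in NSC than in Baseline and at least 7.14-fold higher in NR, or 8.07-fold without replicate 1. *Fut4* was thus detected in every NSC and NR library and in only 1 of the other 6, and NSC and NR did not differ in the test (log2 difference -0.08, interval -0.66 to 0.50 at 95%, and 0.08 without NR replicate 1).

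Among the 16 surface marker genes listed, 2 were higher and 5 lower in Sox1posGP than in Baseline, beside 21.6% and 22.7% of all genes. The lower ones included *Itga6*, the laminin receptor subunit CD49f, at 74.6 against 332 CPM, and *Egfr*, the EGF receptor, at 151 against 394 CPM. In NSC 8 were higher and 7 lower than in Baseline, beside 44.4% and 33.7% of all genes. In NR 6 were higher and 7 lower, beside 45.6% and 34.1% of all genes. Without NR replicate 1 these were again 6 and 7, beside 43.4% and 34.0%. The list holds *Prom1*, *Cd24a* and *Fut4*, and of its 13 other genes 5 were higher and 7 lower in NSC and 4 and 7 in NR. Of these *Prom2*, with at most 2 reads in a Baseline or Sox1posGP library, passed the filter only through NSC and NR. The glutamate transporter gene *Slc1a3*, known as GLAST, was at 2605 CPM in Baseline, 1182 CPM in Sox1posGP, 52.4 CPM in NSC and 42.3 CPM in NR. It was called lower than in Baseline in Sox1posGP as well. Of the 10 fucosyltransferase genes listed 8 were tested. Against Baseline 1 was higher and 3 lower in Sox1posGP, 2 higher and 4 lower in NSC and 1 higher and 5 lower in NR. They stand beside the same shares of all genes, and the NR counts were the same without NR replicate 1. These counts include *Fut4*, without which 1 was higher in NSC and 0 in NR. *Fut9*, which encodes another enzyme that makes Lewis X, ran the other way from *Fut4*, at 85.4 CPM in Baseline, 66.1 CPM in Sox1posGP, 9.37 CPM in NSC and 7.17 CPM in NR, and was lower than in Baseline in all 3 comparisons. *Fut8*, the enzyme of core fucosylation, was at 88.9 CPM in Sox1posGP against 40.1 CPM in Baseline.

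*Msi1* (ENSMUSG00000054256, chr5:115429599-115455698, plus strand) was at 7.46, 8.23 and 10.4 CPM in Baseline and at 6.66, 7.54 and 8.84 CPM in Sox1posGP, which overlap. It was at 72.8, 67.2 and 57.3 CPM in NSC and at 12.3, 30.6 and 35.3 CPM in NR. Every NSC library was above every NR library and every NR library above both progenitor groups. Sox1posGP minus Baseline gave a log2 value of -0.12 with an interval from -0.83 to 0.58 at 95% and did not pass. Against Baseline it was 2.96 in NSC (adjusted p = 1.16e-06 by the edgeR test) and 1.63 in NR (adjusted p = 2.47e-04, same edgeR test), or 1.93 in NR without replicate 1.

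*Msi2* (ENSMUSG00000069769, chr11:88339382-88718513, minus strand) encodes the other Musashi protein and was highest in Baseline. It was at 57.6, 68.8 and 71.6 CPM there and at 34.5, 37.5 and 35.2 CPM in Sox1posGP. It was at 41.6, 51.4 and 41.7 CPM in NSC and at 20.1, 32.8 and 29.7 CPM in NR. No library of another group reached the Baseline range. The log2 fold change against Baseline was -0.88 in Sox1posGP (standard error 0.17, adjusted p = 8.85e-04 by the edgeR test), -0.55 in NSC (adjusted p = 0.00599) and -1.25 in NR (adjusted p = 7.42e-06, same edgeR test), or -1.10 in NR without replicate 1. Sox1posGP was 0.33 below NSC and 0.37 above NR on the log2 scale (adjusted p = 0.0909 and 0.0584, same edgeR test). The difference from NSC lost its call without any single library of either group, with values from -0.38 to -0.20 (-0.20 without NSC replicate 2). The difference from NR lost it without NR replicate 1 (0.22), Sox1posGP replicate 2 (0.32) or Sox1posGP replicate 3 (0.37). Per length, *Msi2* exceeded *Msi1* in Baseline, at 6.34 against 1.501 RPKM, and in Sox1posGP, at 3.43 against 1.32 RPKM, whereas in NSC *Msi1* was at 11.3 and *Msi2* at 4.32 RPKM. In NR the means were 4.50 RPKM for *Msi1* and 2.65 RPKM for *Msi2*. The 3 genes that overlap *Msi2* had at most 19 reads in a library.

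Among 18 genes of RNA-binding proteins of progenitors and neurons, 2 were higher and 3 lower in Sox1posGP than in Baseline, beside 21.6% and 22.7% of all genes. They included *Igf2bp2*, a messenger RNA-binding protein gene active in early development, at 37.0 against 20.4 CPM and *Qk*, the glial RNA-binding protein Quaking, at 355 against 1062 CPM. In NSC 11 were higher and 2 lower than in Baseline, beside 44.4% and 33.7% of all genes, with *Igf2bp1* at 521 against 3.46 CPM. In NR 9 were higher and 5 lower, beside 45.6% and 34.1% of all genes. Without replicate 1 these were 9 and 6, beside 43.4% and 34.0%. *Rbfox1*, with at most 2 reads in a Baseline or Sox1posGP library, passed the filter only through NSC and NR and had to differ there. Between NR and NSC 0 of the 18 were higher and 15 were lower in NR, beside 30.0% and 26.6% of all genes, with a median log2 fold change of -0.68 against 0.01 over all genes. Without NR replicate 1 these were 0 and 13, with a median of -0.53, beside 24.8% and 21.9% of all genes and a median of 0. The lower progenitor and higher pluripotency marker sums of NR given above stand beside this count too. Of 6 transcripts that Musashi proteins are known to bind, 1 was higher and 3 were lower in Sox1posGP than in Baseline (21.6% and 22.7% of all genes). The higher one was *Dcx*, at 4.57 against 0.713 CPM. *Cdkn1a*, the cell cycle inhibitor p21, was lower, at 66.8 against 322 CPM. In NSC 4 of the 6 were higher and 1 lower than in Baseline (44.4% and 33.7% of all genes). In NR 4 were higher and 2 lower (45.6% and 34.1%), also without replicate 1 (43.4% and 34.0%).

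*Trnp1* (ENSMUSG00000056596, chr4:133491100-133498550, minus strand) had few reads, 22, 8 and 6 in Baseline, 16, 35 and 37 in Sox1posGP, 109, 93 and 100 in NSC and 53, 89 and 115 in NR. As levels these were 1.31, 1.12 and 1.25 CPM in Baseline, 4.63, 5.50 and 6.17 CPM in Sox1posGP, 2.44, 3.21 and 3.05 CPM in NSC and 3.26, 2.87 and 3.23 CPM in NR. Sox1posGP stood above all other libraries and Baseline below all others, and NSC and NR overlapped. The log2 fold change against Baseline was 2.14 in Sox1posGP (standard error 0.26, adjusted p = 2.22e-05 by the edgeR test), 1.22 in NSC (adjusted p = 5.03e-04) and 1.33 in NR (adjusted p = 2.33e-04, same edgeR test), or 1.26 in NR without replicate 1. Sox1posGP was also above NSC by 0.92 and above NR by 0.81 (adjusted p = 0.00192 and 0.00425, same edgeR test), or by 0.87 without NR replicate 1. On the log2 scale Sox1posGP was 176% ± 17.5 (SD, n = 3) of the way from Baseline to NSC, which is past NSC, where *Nes* was short of it. Of the 175 other tested genes within 5 Mb of *Trnp1* 49 were higher and 38 lower in Sox1posGP than in Baseline, with a median log2 fold change of 0.13, and 7 were at least as high as *Trnp1*.

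*Bcan* (ENSMUSG00000004892, chr3:87987531-88000230, minus strand) encodes Brevican, a chondroitin sulphate proteoglycan of the lectican family. Its end lies 7079 bases from the end of *Nes*, and the genes are transcribed towards each other. *Bcan* was at 593, 616 and 641 CPM in Baseline and at 813, 780 and 789 CPM in Sox1posGP. It was at 2.44, 2.07 and 2.74 CPM in NSC and at 1.35, 2.19 and 1.66 CPM in NR. All Sox1posGP libraries were above all Baseline libraries, and both groups were far above NSC and NR. Sox1posGP exceeded Baseline by 0.37 on the log2 scale (standard error 0.098, adjusted p = 0.00933 by the edgeR test). Of the 145 other genes tested within 5 Mb of *Bcan*, 92 were at least as high as *Bcan* in that comparison, and their median was 0.77. Against Baseline the log2 fold change reached -7.99 in NSC (adjusted p = 8.44e-14) and -8.43 in NR (adjusted p = 7.35e-14, same edgeR test), or -8.36 in NR without replicate 1. NR was 0.44 below NSC (adjusted p = 0.0266, same edgeR test) with overlapping libraries. It was -0.34 without NR replicate 1 and still passed, and without NR replicate 3 the value was -0.38 and did not pass (adjusted p = 0.107, same edgeR test). *Nes* and *Bcan*, though neighbours, thus lay in opposite directions in NSC, where *Nes* was higher and *Bcan* lower than in Baseline, and both were higher in Sox1posGP.

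*Sparcl1* (ENSMUSG00000029309, chr5:104079111-104113733, minus strand) encodes a secreted relative of SPARC, known as Hevin, that astrocytes make. It was at 398, 357 and 338 CPM in Baseline and at 637, 640 and 591 CPM in Sox1posGP. It was at 43.4, 36.6 and 48.6 CPM in NSC and at 23.9, 51.4 and 24.5 CPM in NR. Sox1posGP was above Baseline in every library, Baseline above NSC and NR, and the last pair overlapped. The log2 fold change against Baseline was 0.77 in Sox1posGP (standard error 0.22, adjusted p = 0.0129 by the edgeR test), -3.09 in NSC (adjusted p = 4.91e-08) and -3.45 in NR (adjusted p = 1.86e-08, same edgeR test), or -3.30 in NR without replicate 1. With Baseline set to 0% and NSC to 100% on the log2 scale, Sox1posGP stood at -25.1% ± 2.07 (SD, n = 3) for *Sparcl1* and at -4.60% ± 0.391 for *Bcan*, which is on the side of Baseline away from NSC. NR minus NSC was -0.36 and did not pass (adjusted p = 0.204), and it was -0.18 without NR replicate 1, but without NR replicate 2 it was -0.83 and passed (adjusted p = 5.26e-05, same edgeR test). The antisense gene *Gm26703* within *Sparcl1* had at most 28 reads in a library.

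The lists around both matrix genes moved in either direction. Of 13 lectican, link protein and matrix partner genes 12 were tested, with 2 higher and 4 lower in Sox1posGP than in Baseline, beside 21.6% and 22.7% of all genes. *Tnc*, which encodes the glycoprotein tenascin-C, was at 212 against 913 CPM, *Ptprz1*, the gene of a receptor phosphatase that binds it, at 292 against 888 CPM, and the higher genes were *Bcan* and *Tnr*, the gene of tenascin-R, at 2.00 against 0.415 CPM. In NSC 5 were higher and 6 lower than in Baseline (44.4% and 33.7% of all genes), and in NR 5 and 7 (45.6% and 34.1%). Without NR replicate 1 the NR counts were again 5 and 7, beside 43.4% and 34.0%. *Acan* and *Hapln1*, with at most 2 reads in a Baseline or Sox1posGP library, passed the filter only through NSC and NR. In NSC and NR *Tnc* was at 68.1 and 39.8 CPM and *Ptprz1* at 57.7 and 18.8 CPM. Of the 8 SPARC family genes 2 were higher and 3 lower in Sox1posGP, beside the same shares as above. *Sparc* itself was at 210 against 113 CPM, while *Spock2*, a testican proteoglycan gene, was at least 39.7-fold lower. In both NSC and NR 5 of the 8 were higher and 3 lower than in Baseline, *Sparc* being at 787 CPM in NR. The shares of all genes are those given above for NSC and NR, and the NR counts were the same without replicate 1.

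Likeness between genes is described by Pearson's r of log2 CPM over the 12 libraries, which form 4 groups and share depth and group within each. Among pairs of the 10 genes the highest r was 0.986, for *Bcan* and *Sparcl1*, followed by 0.975 for *Prom1* and *Fut4*, and the lowest was -0.978, for *Fut4* and *Bcan*. *Fut4* had at most 1 read in a Baseline or Sox1posGP library, so its log2 level there was set mostly by the prior count. Its r values thus mainly restate that it was at the floor in these groups and present in NSC and NR. For *Trnp1* and for *Msi2* the r of largest size was the -0.696 between them, and for *Vim* it was 0.721, with *Cd24a*. The tested genes with the highest r to *Nes* were *Peg12* (0.990), *Sox1* (0.983) and *Rhobtb1* (0.970), and with the group means removed these were 0.963, 0.889 and 0.945. These values include NR replicate 1, which was low for both *Nes* (76.9 against 240 and 185 CPM) and *Sox1* (4.62 against 20.0 and 19.2 CPM). The r without it was not computed, so its part in the values within groups is not known. Those of *Vim* were *Mettl9*, *Grip1* and *Nek6*, from 0.952 to 0.964. *Prom1* was followed most closely by *Ints9*, *Arhgef17* and *Tox2* (0.993 to 0.994), *Cd24a* by *Pkia*, *Tmem123* and *Hspa4l* (0.983 to 0.986), and *Fut4* by *C1qtnf3*, *Klhl4* and *Gli1* (each 0.995). For *Msi1* these were *Gm26709*, with a mean of 0 CPM in Baseline and Sox1posGP, *Dtx4* and *Tgfbr1* (0.984 to 0.991). For *Msi2* they were *Agap1*, *Klf3* and *Peli2* (0.973 to 0.979). For *Trnp1* they were *Nipsnap3b*, *Pcyt2* and *Ubqln4* (0.975 to 0.981), which dropped to between 0.386 and 0.50 with the group means removed. *Bcan* was closest to *Igsf21*, at 100 CPM in Baseline, 126 CPM in Sox1posGP, 4.49 CPM in NSC and 3.75 CPM in NR, with an r of 0.998 that was -0.154 within groups, and next to *Gm5733* and *Mir3093*, which both had a mean of 0 CPM in NSC and NR. *Sparcl1* was closest to *Pde1c*, *Nptx1* and *Calcrl* (0.992 to 0.995), *Nptx1* being at 203, 453, 4.47 and 3.45 CPM in Baseline, Sox1posGP, NSC and NR.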

How the data were processed

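Total RNA was isolated with the PicoPure kit, amplified with SMART-Seq v4 and made into libraries with the MicroPlex kit, per the labels. The deposited values are raw counts of reads per Ensembl gene, not normalized by the authors. The submitters' processing notes name mm10, STAR 2.6 and RSEM 1.1.14, and the annotation, the strand setting and any read filter are not given in the sources used here. The 12 count columns were mapped to samples, groups and replicate numbers through the labels. Symbols, exon lengths and coordinates were taken from GENCODE for GRCm38, which gave 45143 of the 45706 genes a symbol, and genes without one held 0.124% of the counts.

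After the filterByExpr filter and TMM scaling, 1 quasi-likelihood model of edgeR 4.0.16 (R 4.3.3, limma 3.58.1) was fitted over all 12 libraries without a block, with 6 contrasts. Benjamini-Hochberg adjustment covered 17003 genes, and adjusted p under 0.1, the rate the study states, was called. Standard errors were taken as |log2 fold change| / √F, and log2 CPM used a prior count of 2. P values measure the spread between these libraries. Labels number the replicates 1 to 3 in each group. Deviations of same-numbered libraries from their group means correlated at 0.229, 0.490 and 0.296 between NR and NSC and at -0.047 to 0.062 in the other comparisons. Libraries of unlike number were not compared, so NR and NSC may be paired by number but this does not establish it. The model used for the p values has no block, and the replicate block is among the alternatives.

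The alternatives were the Wald test of DESeq2 1.42.0, scaling by its size factors or by the upper quartile, no filter or a stricter one, the replicate block, models restricted to a pair of groups, stricter thresholds and leaving out each library. List counts without NR replicate 1 were added after seeing the data. Tables and plots were made with Python 3.11.15, pandas 2.3.3 and matplotlib 3.10.9. Named genes are the 10 marker genes, *Sox1*, cell type markers, the 3 most correlated genes of each marker and the list genes with the largest called differences, and a few other list genes were named for comparison after their values were seen. The marker genes and lists were chosen with earlier results of these data known.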

Additional observations from a re-analysis of the deposited data

Results flagged for a closer look

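For *Vim* the differences from Baseline had opposite signs in NSC and NR. Against the same Baseline libraries it was higher in NSC (log2 fold change 0.36) and lower in NR (-0.33), and the test of the difference itself, NR minus NSC, gave -0.69 with an adjusted p of 0.00175 in edgeR's quasi-likelihood test. Neither call against Baseline was stable: the NSC value was 0.18 without NSC replicate 2 and 0.32 without Baseline replicate 2 and did not pass, and the NR call was lost under 6 of 13 alternatives, with NR and Baseline libraries overlapping. Blocked by replicate number the value was -0.69. Every NR library, at 427 to 670 CPM, was below every NSC library, at 783 to 1081 CPM. NR also held pluripotency markers at 1408 to 2694 CPM in sum, against 46.5 to 144 CPM in NSC, and their part in the difference was not tested.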

How the results depend on the processing

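Of 750 recomputed differences of single genes 702 kept their direction and their side of the threshold, 21 lost the call, 9 gained it and 18 changed sign. Those that changed sign were not called in the results above. With a fold change over 4 as a further condition, the genes called fell from 5 to 1 between Sox1posGP and Baseline (*Trnp1*, beside 5.79% of all genes), from 10 to 6 for NSC (25.4%) and from 9 to 4 for NR (28.1%) against Baseline, from 7 to 0 between NR and NSC (7.46%), and to 5 and 4 for Sox1posGP against NSC (22.6%) and NR (26.2%). *Fut4*, which had to differ there, is in the counts of NSC or NR against either progenitor group. With at least 10 counts in every library 7 of the 10 genes could be tested, and 5 were called between NR and Baseline and 4 between Sox1posGP and NR. Without single replicates the counts ranged from 5 to 5, 9 to 10, 8 to 10, 6 to 8, 8 to 8 and 7 to 10 in the order Sox1posGP, NSC and NR against Baseline, NR against NSC, and Sox1posGP against NSC and NR. The replicate block left all 6 counts as they were (5, 10, 9, 7, 9 and 8). Apart from the fits without NR replicate 1, the shares of all genes under the filter, omission and block settings are not given here. Such counts therefore cannot be set against a background of their own.

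The log2 values that changed sign were those of genes not called. Without single libraries, *Prom1* between Sox1posGP and Baseline ranged from -0.21 to 0.45, *Cd24a* in that comparison from -0.12 to 0.0551, *Cd24a* between NR and Baseline from -0.33 to 0.0671 and *Cd24a* between Sox1posGP and NR from -0.145 to 0.26. The range between NR and NSC was -0.0294 to 0.17 for *Trnp1* and -0.37 to 0.078 for *Fut4*, and that of *Vim* between Sox1posGP and NSC was -0.19 to 0.0718. Under upper-quartile scaling and the filter of at least 10 counts, *Cd24a* gave 0.00407 and 0.00845 between Sox1posGP and Baseline, 0.00523 and 0.0571 between NR and Baseline, and -0.00116 and -0.0486 between Sox1posGP and NR, where DESeq2 gave -0.0026 and its size factors -0.00361. Under upper-quartile scaling *Cd24a* moved by 0.066, 0.088 and -0.022 in these comparisons and the median of all genes by 0.066, 0.090 and -0.024, and under the size factors by -0.025 and -0.027 between Sox1posGP and NR, so that *Cd24a* moved by about as much as all genes. For the other sign changes the cause was not tested.

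Among called values, *Bcan* between NR and NSC no longer passed in a fit of only those groups (adjusted p = 0.153, edgeR's quasi-likelihood test), and *Vim* between NR and Baseline did not pass under DESeq2, its size factors, upper-quartile scaling, the stricter filter or the omission of NR or Baseline replicate 1 (log2 values -0.31 to -0.19). Sox1posGP had the fewest reads, and between Sox1posGP and Baseline *Prom1* had a standard error of 0.53 and *Fut4* allowed no fold change.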
